A study of Mus musculus with 6 samples.

Results

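A set of 50 genes for the actin cytoskeleton and cell motility was examined in sorted natural killer T (NKT) cells of the mouse thymus. They were chosen by name, as actins, actin-binding and actin-nucleating proteins, myosins, vimentin and small GTPases, but with earlier results of these data known. Of the 50 genes 47 had a row in a table of 10755 genes. Ahnak, Cap1 and Myl6 had no row and were not analysed here. Their T cell receptor is nearly invariant and reads lipids that CD1d presents. The study, whose title concerns UTX and JMJD3 in NKT development, compared 3 libraries labelled UTX/JMJD3 DKO with 3 WT libraries. UTX (gene Kdm6a) and JMJD3 (gene Kdm6b) are demethylases of a repressive histone mark, and DKO below means the libraries labelled so. Each genotype had 2 female libraries (replicates 1 and 2) and 1 male library (replicate 3), all from a mixed C57BL/6 and 129 background. All cells were thymic and fell in a fraction called P1, positive for a PBS-57-loaded CD1d tetramer and negative for CD24, NK1.1 and CD44. The labels used here do not give the age of the mice, the Cre driver, or whether libraries of a genotype stem from different mice. A p-value here therefore reflects only how much the libraries varied, which may be technical. Both female DKO libraries are numbered 2 in their descriptions and 1 and 2 in their titles, and the titles were followed.

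Actin monomers assemble into filaments that push the cell membrane forward, and the filaments are constantly taken apart and rebuilt. Branches are started by the Arp2/3 complex when proteins of the WASP and WAVE families switch it on downstream of the GTPases Cdc42 and Rac. Cofilin severs old filaments, profilin and thymosins hold monomers, capping proteins stop growth, and myosins pull on the filaments. T cells use this machinery to crawl in the thymus and to form a synapse with the cell that presents antigen.

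Levels are RPKM, reads scaled by gene length and by the library's total. Comparing different genes per length assumes that the deposited lengths fit and that reads cover transcripts evenly. Neither was checked here, and the RNA had been amplified. The implied totals were 34.4, 7.08 and 6.45 M reads in DKO replicates 1 to 3 and 32.4, 7.24 and 5.04 M reads in WT replicates 1 to 3. Replicate 1 of both genotypes stood apart in more than depth. Cd8a, a coreceptor gene of CD8 T cells and of immature thymocytes, was at RPKM 148, 2.77 and 0 in the DKO libraries and 174, 5.71 and 5.18 in the WT libraries, and Dntt, which encodes a polymerase of immature thymocytes, was at 65.9, 1.73 and 0 in DKO and 84.2, 0.195 and 0.373 in WT. Results are therefore also given for the 4 libraries of replicates 2 and 3. Of 13 markers of T and NKT cells, Cd8a included, 13 had a row, and their summed RPKM was 4976 to 6496 in DKO and 4612 to 5703 in WT. Single markers differed, as 2 of them (15.4%), Trac and Cd3g, lay wholly above WT, against 5.71% of all genes, and 0 wholly below. Trac was at RPKM 759, 896 and 778 in DKO and 475, 598 and 483 in WT. Kdm6a was at RPKM 4.97, 5.28 and 3.53 in DKO and 7.06, 4.86 and 1.94 in WT, and Kdm6b at 1.41, 0.978 and 2.59 in DKO and 1.62, 3.12 and 3.65 in WT. Both groups overlapped for both genes. What the knockout removed and how reads were counted is not given in the sources used here, so these levels do not check the labels.

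As a set, these genes were highly expressed, and most had a level in DKO modestly below that in WT. Their median level was RPKM 98.1 in DKO and 148 in WT, against 14.1 in DKO and 14.6 in WT over all genes of the table. Summed over the 47 genes, RPM (reads scaled by the library's total alone) was 17745, 17011 and 18678 in the DKO libraries and 24272, 22929 and 22535 in the WT libraries, which gives 17811 ± 836 in DKO and 23245 ± 911 in WT (SD, n = 3 each). Every DKO library lay below every WT library, and the DKO mean was 76.6% of the WT mean. In bulk RNA, fewer cells of a type and less RNA per cell cannot be told apart.

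By role, DKO held the smallest share of the summed WT RPM for the 2 actins, at 1371 ± 149.98 in DKO and 2180.3 ± 140.4 in WT, or 62.9%. The share was 72.4% for capping proteins and coronins, 73.8% for monomer-binding and severing proteins and 76.1% for myosins. It was 79.4% for the Arp2/3 complex, 80.4% for crosslinkers and membrane linkers, 83.6% for GTPases and their regulators and 88.2% for nucleation promoters and their partners. The 7 subunit genes of Arp2/3 together varied least within DKO, at 2012 ± 9.25 in DKO and 2533 ± 145 in WT (SD, n = 3 each). This sum hides a wider spread of some subunits. In DKO Arpc3 was at RPKM 9.86 ± 7.48 and Arpc1b at 87.7 ± 19.5, while Actr3 was at 224 ± 12.3. Within WT the nucleation promoters and their partners varied least, at 959 ± 23.0.

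None of the 47 passed the test singly. The test was limma's moderated test on log2(RPKM + 1) with Benjamini-Hochberg adjustment over 10694 genes, which called 0.0842% of all genes at an adjusted p of 0.05 and 0 of the 47. At an unadjusted p of 0.05, 13 of the 47 were lower, where 8.14% of all genes were, and 0 were higher, where 2.88% of all genes were. The 3 DKO values all lay below the 3 WT values in 19 of the 47 (40.4%), against 11.4% of all genes, and above them in 0, against 5.71%. Because the members were chosen with earlier results of these data known, such shares describe the set and do not test it. With median log2 ratio scaling the count wholly below was 12 and that at an unadjusted p of 0.05 was 8, and without the variance trend the count at that p was 5. A row in the table required an RPKM above 3 in at least 2 libraries, which Myo1f and Myh9 met through WT alone. Among genes that did so in both genotypes, 17 of 45 members (37.8%) lay wholly below WT, against 10.8% of 8875 genes. Among genes with a mean RPKM of at least 50, a level chosen after the values were seen, 15.4% of all genes and 16 of the 33 members (48.5%) lay wholly below WT, and 5.36% of all genes and 0 members wholly above. At that level 12 members were lower at an unadjusted p of 0.05 (12.1% of all genes were), 0 were higher (2.38%) and 0 passed (0.367%). Log2 changes lay below 0 for 40 of the 47, against 57.1% of all genes, with a median of -0.42 for the members and -0.11 for all genes. The general shift depended on the scaling. With quantile normalization the median was -0.35 for the members and 0.01 for all genes, and with median log2 ratio scaling it was -0.32 for the members and -0.02 for all genes.

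**Figure D1:**
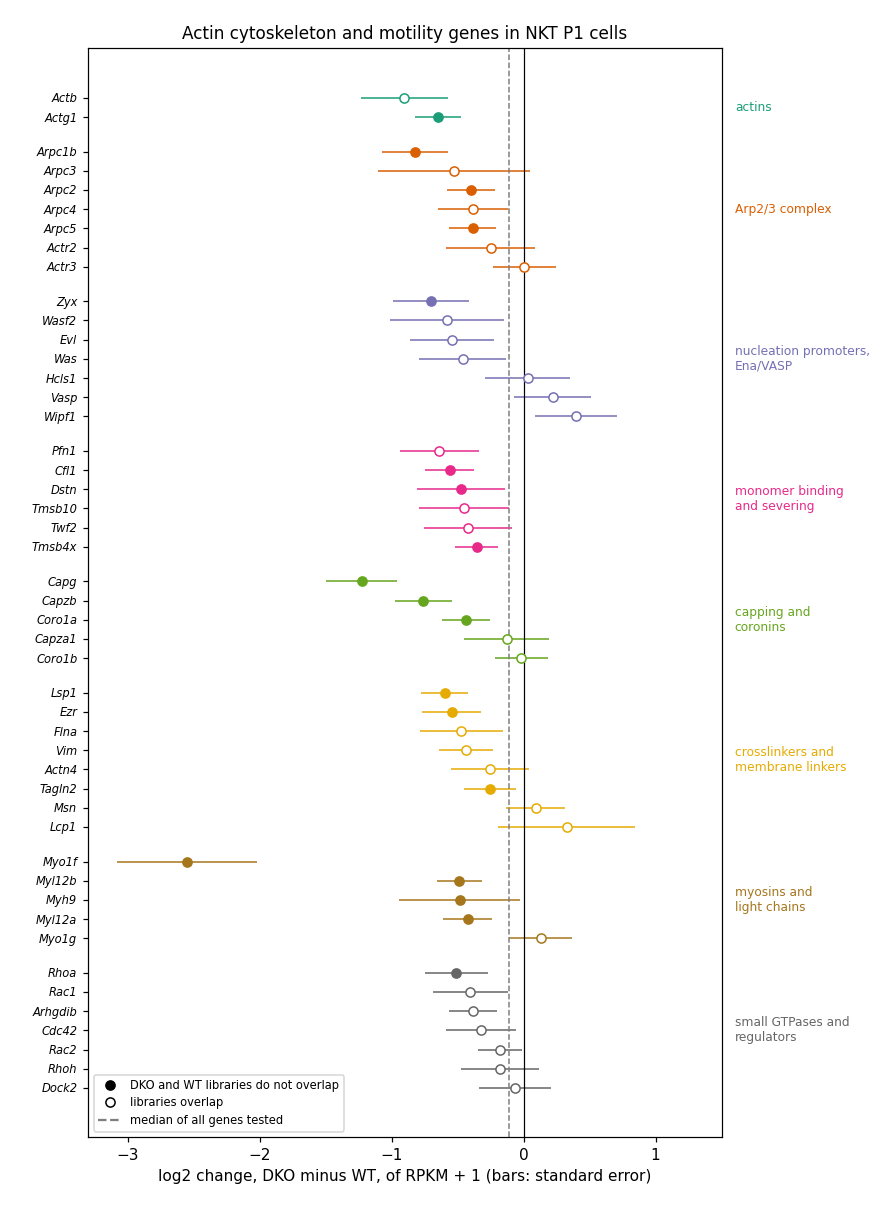
Log2 change (DKO minus WT, of RPKM + 1) with its standard error for the 47 genes, in 8 groups by role; filled points mark genes whose DKO and WT libraries do not overlap and the dashed line is the median of all genes tested (-0.11). Of the 47 genes 40 lie below 0, Myo1f lies farthest to the left at -2.55, and no filled point lies above 0.

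Medians of the members lay below those of all genes within each replicate number as well. DKO minus WT within replicate 1 gave a median log2 difference of -0.42 over the members and -0.06 over all genes. For replicate 2 the medians were -0.44 and -0.15, and for the male libraries -0.30 and -0.05. A member was lower in DKO in all 3 of these comparisons for 30 genes (63.8%, against 23.4% of all genes), in 2 for 11 genes and in 1 for 6 genes. In the 4 libraries of replicates 2 and 3, where Cd8a and Dntt were low, the median was -0.37 over the members and -0.12 over all genes, 28 members lay wholly below WT (26.5% of all genes did), and 3 lay wholly above (17.3% of all genes did). These counts rest on 2 libraries a group.

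By the median, the genes also varied less between libraries than all genes. Their level was higher as well, and their spread was not compared with that of genes of like level. The coefficient of variation of RPKM had a median of 20.2% in DKO and 14.1% in WT over the members, against 37.4% in DKO and 27.6% in WT over all genes. Log2 changes had a median SE of 0.27 among members and 0.43 among all genes tested.

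Markers of other states and cell types were also compared, 0 of them passed the test, and their part in these differences was not tested. All 22 listed proliferation genes had a log2 change below 0 (57.1% of all genes did), 15 lay wholly below WT (11.4% of all genes did), and their summed RPKM was 386 to 704 in DKO and 1133 to 1730 in WT. Of 15 listed myeloid genes only Fcer1g and Cd68 had a row, with a summed RPKM of 0.0956, 0 and 3.08 in DKO and 11.7, 17.9 and 16.02 in WT. Fcer1g and Cd68, and Klrb1c and Gzma below, met the table's threshold of RPKM 3 in at least 2 libraries through WT alone, so their lower DKO levels were partly built in. That also holds for the proliferation genes Bub1, Ccnb1, Ccne1 and Cdk1. Lyz2, Csf1r and Itgam, defining genes of myeloid cells, had no row. Of 9 NK cell genes Klrb1c, Nkg7 and Gzma had a row, with summed RPKM of 3.19 to 16.3 in DKO and 24.1 to 32.2 in WT. Klrb1c encodes NK1.1, for which P1 cells were negative. NKT cells can express such genes too, so they do not mark NK cells alone. Of 7 B cell genes only Cd74 had a row, with RPKM of 7.24 to 41.3 in DKO and 3.65 to 7.63 in WT. Of 12 stromal, epithelial and endothelial genes only Pecam1 and Acta2 had one, with summed RPKM of 17.1 and 30.3 in DKO replicates 1 and 3, less in replicate 2, and 12.4 to 37.6 in WT. Of 8 immature thymocyte genes 6 had a row (Rag1 and Rag2 had none), with summed RPKM of 169.5, 62.3 and 34.3 in DKO and 169.4, 36.8 and 29.3 in WT.

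Neither actin gene passed the test, and cytoplasmic gamma-actin was the more abundant transcript per length. Actg1 (ENSMUSG00000062825), which encodes gamma-actin, was at RPKM 608, 588 and 757 in the DKO libraries and 976, 1007 and 1064 in the WT libraries. The highest DKO library was below the lowest WT library, and the DKO mean was 64.1% of the WT mean (log2 change -0.65 ± 0.17 SE, limma adjusted p = 0.212, lower in 3 of 3 same-number comparisons). Actb (ENSMUSG00000029580), which encodes beta-actin, was at 132, 93.2 and 69.4 in DKO and 119, 255 and 187 in WT. The groups overlapped because of replicate 1, where DKO was slightly above WT. The Actb log2 change was -0.90 ± 0.33 (SE, limma adjusted p = 0.337) over all libraries and -1.43 in replicates 2 and 3 alone. Actg1 was 4.62, 6.31 and 10.9 times as abundant as Actb per length in the DKO libraries and 8.22, 3.95 and 5.70 times in the WT libraries, with no separation by genotype.

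The level of each actin has a limit set by sequence. Of the 36-base stretches of the longest coding Actg1 transcript in GENCODE M21, 57.0% also occur on the same strand in a transcript of another gene, and for Actb the share is 28.9%. How the authors' counting treated reads that match several places is not given in the sources used here, so their counts could be split among the copies. Actin promoters are classic targets of serum response factor (SRF), which binds the CArG box. That box, 10 bases long and its own reverse complement, was searched in the 250 bases before the RefSeq gene starts (GRCm38.p6) of 41 members with an entry, and 2 of them (4.88%) held it, Actg1 and Arpc4, against 1.23% of the table's genes with an entry. Actb, Rac1, Rac2, Twf2, Lsp1 and Coro1b had no entry. The last 150 bases before the Actg1 start, on the minus strand at chr11:120348496-120348645, are shown with the box in capitals, which begins 90 bases before the start and is set here beside the actin gene that did not overlap between genotypes. A match of letters does not show binding.
Actg1: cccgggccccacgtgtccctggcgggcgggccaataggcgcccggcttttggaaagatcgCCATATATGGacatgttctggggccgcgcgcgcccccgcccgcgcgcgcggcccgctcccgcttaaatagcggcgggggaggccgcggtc

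The Arp2/3 complex nucleates branched filaments. Of its 7 genes 6 had a log2 change below 0, against 57.1% of all genes, with a median of -0.38. Wholly below WT lay 3, against 11.4% of all genes, and 0 passed. Arpc1b, the hematopoietic form of the WD-repeat subunit, was at RPKM 81.2, 109.5 and 72.3 in DKO and 191, 129 and 148 in WT. Its libraries did not overlap, and the DKO mean was 56.3% of the WT mean (log2 change -0.82 ± 0.25 SE, limma adjusted p = 0.265). Arpc2, a core structural subunit, was at 369, 375 and 311 in DKO and 421, 509 and 464 in WT, and Arpc5 at 232, 265 and 270.4 in DKO and 327, 335 and 337 in WT. Both lay wholly below WT, with DKO means of 75.7% and 76.7% of the WT means.

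Other subunits overlapped between genotypes. Arpc4 was at 112 ± 24.5 in DKO and 147 ± 34.3 in WT, Actr2 at 17.3 ± 3.46 in DKO and 20.9 ± 5.13 in WT, and Arpc3 at 9.86 ± 7.48 in DKO and 12.5 ± 4.94 in WT (SD, n = 3 each). Actr3, one of the 2 actin-related proteins of the complex, was at 224 ± 12.3 in DKO and 229 ± 66.4 in WT, a log2 change of 0.01 that lay on either side of 0 under other settings. Levels of the subunits differed widely per length although the complex holds 1 of each, with Arpc3 and Actr2 far below the rest in every library. For Actr3 59.6% of 36-base stretches occur in other genes' transcripts, for Arpc1b 19.4%, and for Arpc3 0%.

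The proteins that switch on nucleation or bind growing ends lay on both sides of 0. Of 7 genes 4 were below 0 and 3 above, near the share of all genes below 0, 57.1%. Only 1 lay wholly below WT, near the share of all genes, 11.4%. That gene was Zyx, encoding zyxin of focal adhesions, at RPKM 84.9, 49.6 and 78.9 in DKO and 150.01, 92.8 and 104 in WT (log2 change -0.70 ± 0.29 SE, limma adjusted p = 0.411). Evl, of the Ena/VASP family that elongates filaments, was at 48.7, 73.5 and 89.3 in DKO and 69.5, 131 and 109.8 in WT, with overlap. Was, the Wiskott-Aldrich syndrome protein gene, was at 22.0, 12.1 and 19.3 in DKO and 26.1, 25.0 and 21.7 in WT, and 1 DKO library lay just above the lowest WT library.

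Of the other genes of this group, Wipf1, Vasp and Hcls1 had log2 changes above 0 and Wasf2 one below. For Hcls1 it was 0.03 and lay below 0 under some other settings. Wipf1, which encodes the protein that binds and stabilizes WASP, was at 38.0, 68.2 and 65.3 in DKO and 41.4, 52.1 and 34.0 in WT (log2 change 0.40 ± 0.31 SE), the highest of all members. Vasp was at 60.7 ± 16.2 in DKO and 51.7 ± 12.1 in WT, and the cortactin relative Hcls1 at 20.9 ± 5.93 in DKO and 20.02 ± 2.20 in WT (SD, n = 3 each). Wasf2, the WAVE2 gene, was at 4.31, 12.4 and 8.63 in DKO and 11.5, 11.2 and 14.0 in WT, with overlap (log2 change -0.58 ± 0.43 SE).

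Genes for monomer binding and severing were all below 0, where 57.1% of all genes were. Of 6 with a row 3 lay wholly below WT (11.4% of all genes did) and 0 passed, with a median of -0.47. Cfl1, encoding cofilin, was at RPKM 819, 694 and 818 in DKO and 1361, 962 and 1141 in WT (log2 change -0.56 ± 0.19 SE, limma adjusted p = 0.288). All 3 DKO libraries were below the lowest WT library, and the DKO mean was 67.3% of the WT mean. Tmsb4x, encoding the monomer-sequestering peptide thymosin beta-4, was the most abundant member, at 1913, 2182 and 2406 in DKO and 2421, 2956 and 2945 in WT. The groups were separated by a narrow gap between DKO replicate 3 and WT replicate 1, and its rank by level was 35 in DKO and 17 in WT among the 10755 genes.

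Pfn1, encoding profilin, which feeds monomers to growing ends, was at 577, 276 and 589 in DKO and 869.8, 579 and 705 in WT. DKO replicate 3 lay just above WT replicate 2, so the groups overlapped (log2 change -0.64 ± 0.30 SE, limma adjusted p = 0.480). Tmsb10, the smaller relative of Tmsb4x, was at 141, 190.0 and 236 in DKO and 152, 397 and 269.9 in WT, with overlap. Per length, the ratio of Tmsb4x to Actg1, monomer buffer to actin, was 3.14, 3.71 and 3.18 in DKO and 2.48, 2.94 and 2.77 in WT, so that this ratio was higher in every DKO library. The ratio of Cfl1 to Actg1 was 1.20 ± 0.135 in DKO and 1.14 ± 0.227 in WT and that of Pfn1 to Actg1 0.732 ± 0.243 in DKO and 0.709 ± 0.163 in WT (SD, n = 3 each), within the spread. Ratios of Tmsb4x to Tmsb10 (11.8 ± 1.73 in DKO, 11.4 ± 4.25 in WT) and of Cfl1 to Dstn (55 ± 20.25 in DKO, 55.9 ± 13.8 in WT) overlapped too. How often ratios of other gene pairs separate by genotype was not examined. Dstn lay wholly below WT, at 15.1 ± 4.14 in DKO and 20.99 ± 2.24 in WT, and Twf2 overlapped, at 43.3 ± 17.2 in DKO and 56.9 ± 14.99 in WT.

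Capping proteins and coronins were below 0, though 2 of them, Capza1 and Coro1b, lay above 0 under other settings. Over all genes 57.1% were below 0. Of 5 genes 3 lay wholly below WT (11.4% of all genes did) and 0 passed, with a median of -0.43. Capg had the largest difference of the members with a mean RPKM of at least 50. Capg (ENSMUSG00000056737), a gelsolin relative that caps filament ends without severing, was at RPKM 82.1, 68.7 and 134 in DKO and 236, 209.98 and 199.9 in WT. Every DKO library was below every WT library, and the DKO mean was 44.2% of the WT mean (log2 change -1.23 ± 0.27 SE, limma adjusted p = 0.147). Without replicate 1 the log2 change was -1.08. Capzb, the beta subunit of capping protein, was at 185, 125 and 133 in DKO and 261, 251 and 230.4 in WT, again without overlap (log2 change -0.76 ± 0.22 SE, limma adjusted p = 0.236). Its partner subunit Capza1 was at 60.4 ± 18.1 in DKO and 66.5 ± 22.3 in WT (SD, n = 3 each), with overlap. Its log2 change of -0.13 was 0.030 with quantile normalization, 0.077 with array weights and 0.13 in the 4 libraries of replicates 2 and 3. For Capza1 78.3% of the 36-base stretches occur in other genes' transcripts, so the 2 subunits cannot be compared with equal certainty.

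The 2 coronins, which bind filaments and the Arp2/3 complex, gave unlike values. Coro1a, the form typical of leukocytes, was at 533, 464 and 579 in DKO and 807, 644 and 678 in WT, without overlap (log2 change -0.43 ± 0.18 SE, limma adjusted p = 0.416). Coro1b was at 229 ± 16.9 in DKO and 233 ± 37.1 in WT (SD, n = 3 each), with a log2 change of -0.02 that lay above 0 with median log2 ratio scaling (0.08) and quantile normalization (0.06). The ratio of Coro1a to Coro1b was 2.36, 1.88 and 2.70 in DKO and 2.93, 2.97 and 3.27 in WT, lower in every DKO library. No share of gene pairs with such a separation was computed. Of the Coro1b stretches 22.1% are shared, nearly all with Ptprcap, so reads of the 2 genes may be mixed.

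**Figure D2:**
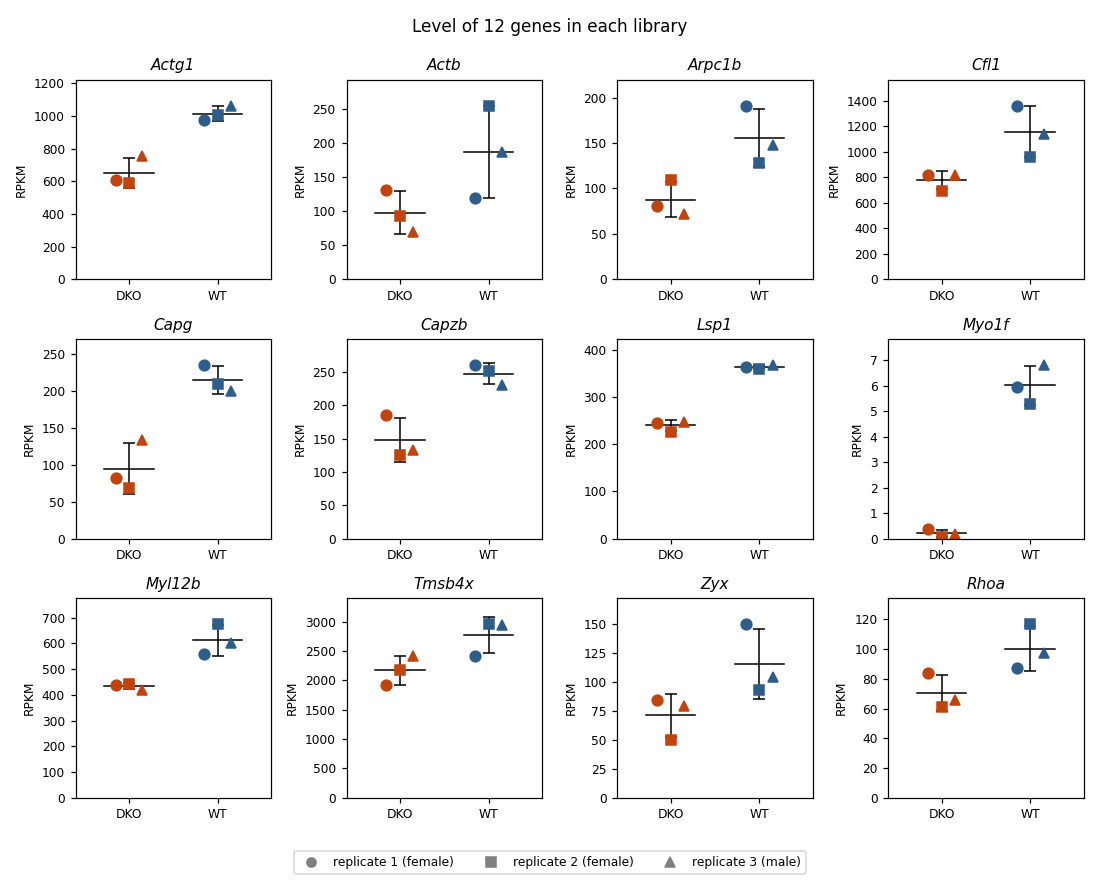
RPKM of 12 genes in each library, DKO left and WT right in every panel, with the mean (line) and SD (bar) of 3 libraries and a symbol per replicate. In 11 of the panels no DKO library reaches the lowest WT library, and in the Actb panel DKO replicate 1 (132) lies above WT replicate 1 (119). The panels are a selection made up mostly of genes without overlap. Over all members 19 of 47 (40.4%) lay wholly below WT, against 11.4% of all genes.

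Crosslinkers and membrane linkers were split. Of 8 with a row 6 were below 0 and 2 above (57.1% of all genes were below 0), with a median of -0.35. There were 3 wholly below WT, against 11.4% of all genes, and 0 passed. Lsp1, a leukocyte actin-binding protein, was at RPKM 246, 226 and 248 in DKO and 363, 359 and 368 in WT. The libraries of each genotype lay close together and far from the other genotype, with a DKO mean at 66.0% of the WT mean (log2 change -0.60 ± 0.18 SE, limma adjusted p = 0.247). Ezr, encoding ezrin, which ties filaments to the membrane, was at 102, 84.9 and 119 in DKO and 161, 153 and 131 in WT, without overlap (limma adjusted p = 0.406). Vim, encoding the intermediate filament vimentin, was at 423, 325 and 308 in DKO and 531, 404 and 491 in WT, where DKO replicate 1 lay above WT replicate 2.

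Moesin, the other linker of the ezrin family, overlapped between genotypes. Msn was at 177 ± 7.96 in DKO and 168 ± 39.8 in WT (SD, n = 3 each), a log2 change of 0.09 that was -0.02 with voom on the recovered reads, so its direction is unsettled. Tagln2 lay wholly below WT by a small margin, at 168.7 ± 0.683 in DKO and 203 ± 28.5 in WT, while Flna was at 33.4 ± 9.98 in DKO and 45.8 ± 8.87 in WT and Actn4 at 23.7 ± 3.31 in DKO and 28.6 ± 5.75 in WT, both with overlap. Lcp1, encoding the leukocyte bundling protein L-plastin, was at 186, 54.2 and 142 in DKO and 187, 58.3 and 66.0 in WT. It was high in replicate 1 of both genotypes and in the male DKO library, and its log2 change of 0.33 ± 0.52 (SE) lay within the spread.

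Of 5 motor genes with a row 0 passed. Of the 3 that exceeded RPKM 3 in at least 2 libraries of both genotypes, 2 lay wholly below WT. Among all genes that did so, 10.8% lay wholly below. Myo1f stood apart from every other member. Myo1f (ENSMUSG00000024300), a class I myosin of immune cells, was at RPKM 0.363, 0.0736 and 0.162 in DKO and 5.97, 5.29 and 6.83 in WT. The reads behind these values were 48, 2 and 4 in DKO and 741, 147 and 132 in WT. All DKO libraries were far below all WT libraries, and the DKO mean was 3.31% of the WT mean. The log2 change of -2.55 ± 0.53 (SE) understates this, because 1 is added to RPKM, and the limma adjusted p was 0.126, or 0.0399 without the variance trend, the only setting under which any member passed. Without replicate 1 the log2 change was -2.65. A gene had a row only where RPKM exceeded 3 in at least 2 libraries, and Myo1f met this through WT alone, so its presence in the table already required a high WT level. None of its 36-base stretches occurs in another gene. The summed NK and myeloid genes given above, most of which met the threshold in the same way, had the same order of genotypes, and their part in the Myo1f value was not tested.

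The other motor genes had smaller differences. Myl12b, a regulatory light chain of nonmuscle myosin II, was at 439.8, 444 and 419.6 in DKO and 558, 675 and 601 in WT, without overlap (log2 change -0.49 ± 0.17 SE, limma adjusted p = 0.314). The near-identical light chain Myl12a was at 419.6, 523 and 445 in DKO and 553, 712 and 598 in WT, also without overlap. Because 30.9% of Myl12a and 33.4% of Myl12b stretches are shared with other annotated genes, for Myl12a mostly with Myl12b, reads could have moved between them, and their ratio was close to 1 in every library, 0.954 to 1.18 in DKO and 0.991 to 1.06 in WT. Myh9, the heavy chain of nonmuscle myosin IIA, was low, at 2.61, 4.47 and 2.68 in DKO and 4.94, 4.97 and 4.62 in WT, and it too met the table's threshold through WT alone. Myo1g, the other class I myosin listed, was at 55.7 ± 3.06 in DKO and 51.0 ± 5.56 in WT (SD, n = 3 each), with a log2 change of 0.13.

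The promoters of the 2 genes with the largest log2 differences, Myo1f and Capg, are shown for comparison with that of Actg1, each as the last 150 bases before the RefSeq start (GRCm38.p6). They lie on the plus strand at chr17:33555557-33555706 and chr6:72549497-72549646. No CArG box was found in either window, and so no letters are in capitals. The G and C content was 58.7% for Myo1f and 56% for Capg, against 74% for Actg1.
Myo1f: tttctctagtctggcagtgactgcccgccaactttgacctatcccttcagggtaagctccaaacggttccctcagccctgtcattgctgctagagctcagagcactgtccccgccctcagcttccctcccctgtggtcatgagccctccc
Capg: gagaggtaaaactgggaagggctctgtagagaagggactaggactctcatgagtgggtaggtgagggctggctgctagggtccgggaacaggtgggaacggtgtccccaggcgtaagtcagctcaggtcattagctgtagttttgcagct

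**Figure D3:**
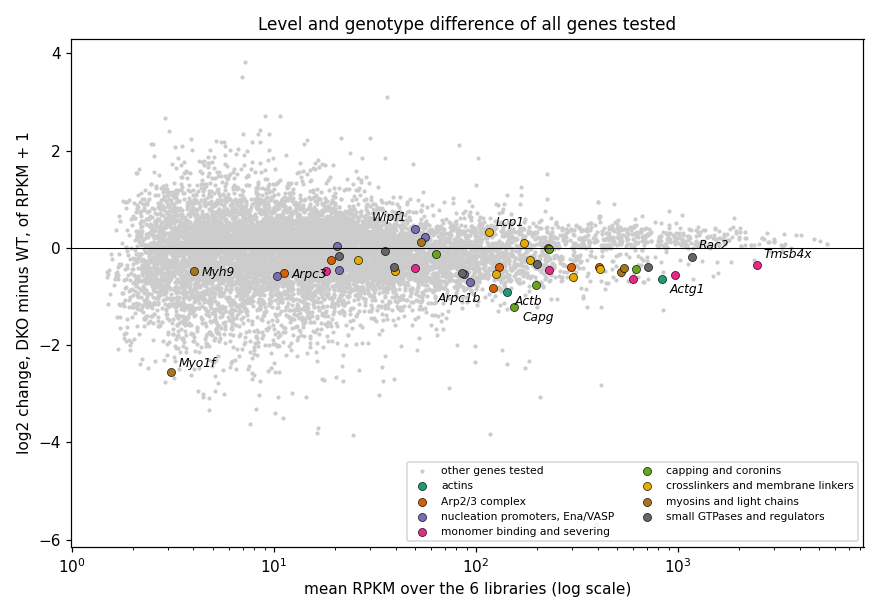
Mean RPKM over the 6 libraries (log scale) against the log2 change (DKO minus WT, of RPKM + 1) for the 10694 genes tested, with the 47 members coloured by role. Members lie mostly to the right, with 33 at a mean RPKM of at least 50, in a narrow band just below 0, and Myo1f lies low at the left.

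The small GTPases that steer actin, and their regulators, were below 0 by small amounts, though Dock2 lay above 0 with quantile normalization (0.039), median log2 ratio scaling (0.032) and array weights (0.037) and in the 4 libraries of replicates 2 and 3 (0.058). Their median was -0.33, 0 of 7 passed, and 57.1% of all genes were below 0. The number wholly below WT was 1, near the share of all genes, 11.4%. Rhoa, which drives contraction, was that gene, at RPKM 84.0, 61.3 and 65.6 in DKO and 87.0, 117 and 97.1 in WT (log2 change -0.51 ± 0.24 SE, limma adjusted p = 0.480). In replicate 1 the 2 genotypes were nearly equal, and without that replicate the log2 change was -0.74. Arhgdib, whose product holds GTPases in the cytosol of blood cells, was at 707, 596 and 546 in DKO and 822, 891 and 699.9 in WT, with overlap of a single library pair.

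Rac2 was the dominant GTPase transcript. It was at 1076, 1078 and 1139.5 in DKO and 1438, 1224 and 1095 in WT, with overlap (log2 change -0.18 ± 0.17 SE, limma adjusted p = 0.722). Rac1, the ubiquitous form, was at 30.2, 41.7 and 29.6 in DKO and 49.7, 50.9 and 34.8 in WT. Rac2 was thus 25.9 to 38.5 times as abundant as Rac1 per length in DKO and 24.1 to 31.4 times in WT, ranges that overlap. The size of this ratio depends on the deposited lengths, 1264 bases for Rac2 and 1043 for Rac1. Their longest coding transcripts in GENCODE M21 have 3038 and 4159 bases. Cdc42, which acts on WASP, was at 134, 262 and 150.2 in DKO and 213, 224 and 219.6 in WT, tight in WT and spread in DKO. Rhoh, a GTPase of T cell receptor signalling, was at 19.6 ± 3.07 in DKO and 22.2 ± 1.33 in WT, and Dock2, an exchange factor for Rac, at 34.5 ± 2.41 in DKO and 36.6 ± 7.26 in WT (SD, n = 3 each).

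**Figure D4:**
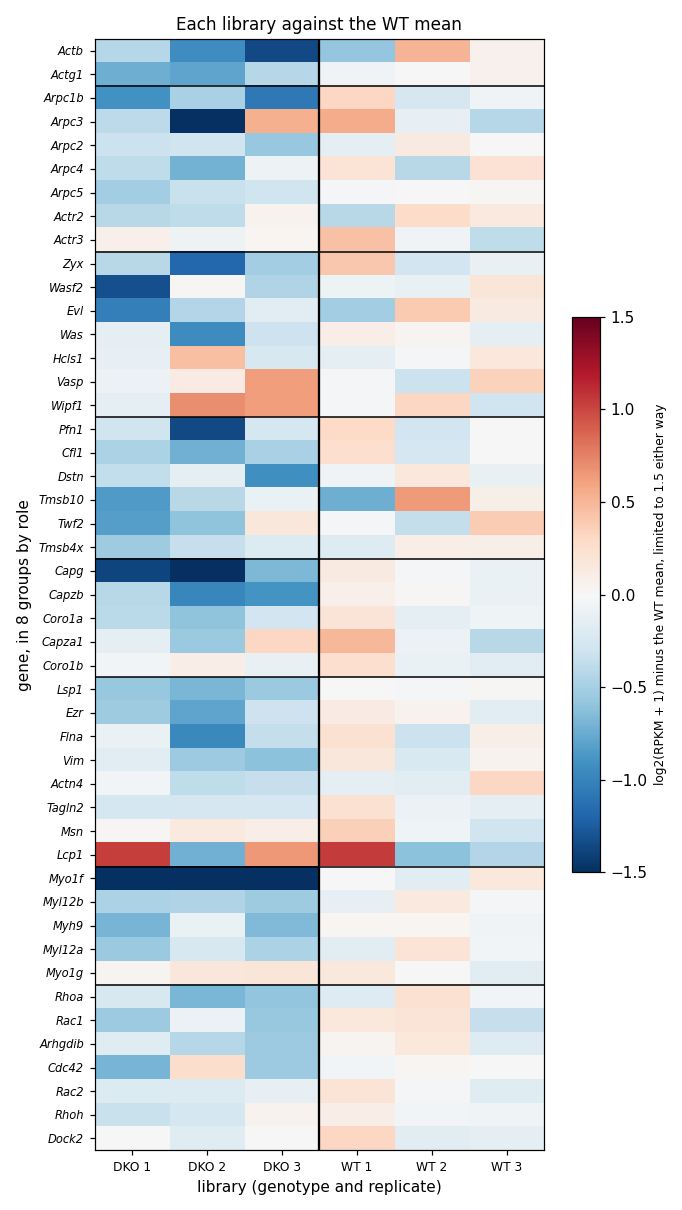
Log2(RPKM + 1) of each of the 47 genes in each library minus its WT mean, with colours limited to 1.5 either way, DKO libraries left and WT libraries right. Blue (below the WT mean) prevails in all 3 DKO columns, Myo1f is at the dark end in all 3 of them, and Lcp1 is red in replicate 1 of both genotypes and in DKO replicate 3.

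Other genes of the same machinery, listed by role and not used to choose the 47, were closer to all genes. Of 131 listed genes 83 had a row, 52 had a log2 change below 0 and 31 above, with a median of -0.16. Wholly below WT lay 8 (9.64%, against 11.4% of all genes) and wholly above 3 (3.61%, against 5.71%), shares near the background, and 0 passed the test. These lists were not matched to the members by level. Among all genes with a mean RPKM of at least 50, 15.4% lay wholly below WT. In 6 of the lists, the numbers wholly below were 2 of 19 monomer, capping and severing genes, 2 of 14 crosslinkers, 2 of 5 myosins, 1 of 4 genes of SRF and its cofactors, 0 of 5 formins and 0 of 11 further Arp2/3, WAVE and WASP genes. Of the monomer, capping and severing genes 2 lay wholly above.

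The 2 crosslinker genes of smallest p and gelsolin lay wholly below WT. Tpm4, a tropomyosin that coats filaments, was at RPKM 104.5, 64.9 and 113 in DKO and 173, 166 and 176 in WT (log2 change -0.90 ± 0.25 SE, limma adjusted p = 0.230). Fermt3, the kindlin of blood cells, was at 54.7, 52.8 and 68.3 in DKO and 85.8, 81.8 and 88.7 in WT (log2 change -0.54 ± 0.23 SE, limma adjusted p = 0.417). Gsn, encoding gelsolin, which like CAPG caps filaments, was at 9.73, 4.76 and 3.79 in DKO and 19.4, 12.7 and 12.5 in WT (log2 change -1.22 ± 0.44 SE, limma adjusted p = 0.329). None of the 3 overlapped between genotypes.

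Pfn2, the second profilin gene, was at RPKM 2.74, 15.03 and 10.2 in DKO and 0.190, 2.03 and 0.948 in WT, wholly above, with a log2 change of 2.19 ± 0.67 (SE, limma adjusted p = 0.265). It met the table's threshold through DKO alone, so a higher DKO level was partly built in. Its level stayed far below that of Pfn1 per length in every library. Myo6, a myosin that walks toward the pointed end, was at 5.38, 1.70 and 0.292 in DKO and 33.7, 16.03 and 6.79 in WT (log2 change -2.56 ± 0.71 SE, limma adjusted p = 0.220). Both genotypes had their highest Myo6 level in replicate 1, each DKO library lay below every WT library, and the gene met the threshold through WT alone. Myo9b, another myosin, was at 14.5, 12.3 and 7.73 in DKO and 17.1, 15.4 and 18.1 in WT, also without overlap.

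Genes that act with the GTPases and SRF had values on both sides. Cdc42se1, a small effector of CDC42, was at RPKM 49.5, 37.2 and 41.1 in DKO and 71.3, 60.6 and 64.7 in WT, without overlap (limma adjusted p = 0.393). Arhgap15, a Rac inactivator, was at 36.8, 25.7 and 29.5 in DKO and 31.4, 12.3 and 13.0 in WT, where replicate 1 of WT lay among the DKO libraries. Fhl2, a partner of SRF, was at 3.89, 0.288 and 2.85 in DKO and 11.1, 4.88 and 6.75 in WT, without overlap (limma adjusted p = 0.406), and met the threshold through WT alone. Srf itself was at 6.95, 0.433 and 3.39 in DKO and 2.37, 2.91 and 11.4 in WT, with wide spread in both genotypes.

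The leading formin and nucleation genes of the further lists overlapped. Diaph3, a formin that builds unbranched filaments, was at RPKM 0.894, 2.99 and 0.305 in DKO and 6.14, 5.19 and 2.04 in WT, and met the threshold through WT alone. Fmnl1, a leukocyte formin, was at 55.9, 32.8 and 47.8 in DKO and 63.8, 48.5 and 44.9 in WT. Arpc1a, the other form of the subunit that Arpc1b encodes, was at 68.2, 109.5 and 59.9 in DKO and 97.1, 110.6 and 103 in WT, so that 1 DKO library lay among the WT libraries. Wasl, the broadly expressed relative of Was, was at 3.99, 8.38 and 4.93 in DKO and 4.02, 5.72 and 1.24 in WT.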

How the data were processed

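RNA of 6 libraries (3 DKO, 3 WT) was sequenced after amplification by a published method for few cells, per the labels' protocols. Bowtie and mm9 are named in the submitters' processing notes, while version, annotation and counting are not stated there. RPKM was deposited by the authors for 10772 rows with a gene length, each above RPKM 3 in at least 2 libraries, as testing the file showed. RPKM times length was a whole multiple of a step, within 0.05, for 99.6% to 100% of values, which gave reads and totals. Reads after amplification are not independent molecules. IDs were named through GENCODE M21 (9918 matched), rows sharing a symbol were reduced to that with the highest mean (10755 genes), and 10694 genes, all 47 members included, that reached RPKM 1 in 3 or more libraries were tested with limma 3.58.1 in R 4.3.3 on log2(RPKM + 1), two-sided, with a variance trend and the threshold at an adjusted p of 0.05. No count model was the main test, because the unit is RPKM. With 3 libraries against 3 an exact permutation test cannot go below 0.1. Python 3.11.15 with pandas 2.3.3 and matplotlib 3.10.9 was used.

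The members, lists and alternatives were chosen with earlier results of these data known. Every library's value was to be given for the 3 members with the smallest p and the most abundant member of each role, for the pairs Actb and Actg1, Myl12a and Myl12b, Tmsb4x and Tmsb10, and Rac1 and Rac2, and the 2 genes with the smallest p of each further list. Wipf1, Wasf2, Lcp1, Myh9 and Cdc42 were also given in full after their values were seen. Shared stretches and promoters come from GENCODE M21 and RefSeq (GRCm38.p6), another build than mm9, so no coordinates of the measured genes are given. The counts of 1 further list are not reported here.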

Additional observations from a re-analysis of the deposited data

How the results depend on the processing

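Under 20 alternatives, 47 members gave 939 values, of which 29 changed direction, all in 8 genes with log2 changes near 0 or wide spread, and 1 newly passed (Myo1f without the variance trend). Under the stricter filter Myh9 was not tested. The count of members wholly below WT, 19, was 12 with median log2 ratio scaling. There the median of the members was -0.32 and the count at an unadjusted p of 0.05 was 8 in place of 13. That scaling lifts DKO relative to WT, mainly by lowering the WT libraries. The count at an unadjusted p of 0.05 was 5 without the variance trend, where 1 member passed, and 20 with the replicate block. Deviations from the group means correlated at 0.23, 0.15 and 0.075 for replicates 1, 2 and 3, and each library correlated best with its own number. The deposited headers name replicate 1 of both genotypes Set1, and replicate 3 is the only male library of each genotype. The labels thus match some libraries across genotypes but do not state a pairing. Because not all correlations were over 0.1, the main test was left unpaired. With the replicate block 9 of all genes were called, as without it, while members lower at an unadjusted p of 0.05 rose from 13 to 20. The count wholly above WT, 0, was 1 with quantile normalization and 3 in the 4 libraries of replicates 2 and 3. Over all genes the 9 calls were 24 with array weights, 0 with voom on the recovered reads (1661 genes at an unadjusted p under 0.05) and 1 in the 4 libraries. Leaving out 1 library in turn gave 0 to 2 members wholly above WT (2 without replicate 1 of either genotype), 8 to 15 members lower at an unadjusted p of 0.05 (8 without WT replicate 3), and 0 to 13 calls over all genes (2 without WT replicate 1, 0 without WT replicate 2 or 3); other causes were not tested.

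Log2 changes that turned were those of Capza1 (0.030 with quantile normalization, 0.077 with array weights, 0.13 in the 4 libraries), Coro1b (0.055, 0.042 and 0.12 in the same settings, 0.083 with median log2 ratio scaling), Dock2 (0.039, 0.037, 0.058 and 0.032 in that order), Actr3 (-0.000854 with a fixed sum, -0.092 with voom), Hcls1 (-0.058 with array weights) and Msn (-0.024 with voom). Leaving out 1 library in turn gave -0.18 to 0.22 for Actr3, -1.06 to 0.071 for Arpc3, -0.34 to 0.12 for Capza1, -0.10 to 0.11 for Coro1b, -0.15 to 0.087 for Dock2, -0.18 to 0.17 for Hcls1, -0.032 to 0.85 for Lcp1 and -0.056 to 0.27 for Msn. A genotype by sex term, with 1 male library per genotype, passed for 0 members (lowest unadjusted p 0.0714 by limma) and for 0 of all genes, with 293 at an unadjusted p under 0.05. Depth limits Myo1f in DKO, where 2 libraries held 2 and 4 reads.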
